A study of Mus musculus with 2 samples.

Results

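The genes of the proteasome and the immunoproteasome were followed in wild-type mouse bone marrow cells cultured without and with RANKL, the cytokine that drives osteoclast differentiation. The 45 genes were all protein-coding genes of the GENCODE vM21 annotation whose symbols begin with Psma, Psmb, Psmc, Psmd or Psme and a digit, out of 21951 protein-coding genes. RNA was sequenced as 1 library per treatment, from WT bone marrow cells that received M-CSF without RANKL (M) or M-CSF together with RANKL (MR). The doses were 20 ng/mL for M-CSF and 100 ng/mL for RANKL, and both cultures started with M-CSF. The age of the mice, and whether marrow of several animals was pooled, are not given in the sources used here. The labels describe 2 days with M-CSF followed by 2 days with RANKL, and the methods of the study give 3 days with RANKL. With 1 library per condition differences have no check by replicates and no p-value, and each value describes these libraries only.

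The proteasome is the protease that degrades ubiquitin-tagged proteins in the cytosol and nucleus. Its 20S core is a barrel of outer rings of α subunits, which gate the entry, and inner rings of β subunits, of which those encoded by Psmb6, Psmb7 and Psmb5 carry the caspase-like (β1), trypsin-like (β2) and chymotrypsin-like (β5) sites. In cells exposed to interferon and in many hematopoietic cells, the subunits encoded by Psmb9, Psmb10 and Psmb8 replace them in newly assembled cores, which are then called immunoproteasomes and yield peptides suited to MHC class I molecules. The core is capped by the 19S particle, with ATPases (Psmc) and non-ATPases (Psmd) that bind, deubiquitinate and unfold substrates, or by the activators encoded by the Psme genes. RANKL signalling in osteoclast precursors uses proteasomal degradation of NF-κB inhibitors.

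Of the 45 genes, 43 had an assembled locus of their own in both libraries, and 41 had a TPM of at least 10 in both. TPM is a level per transcript length, scaled so that the assembled loci of a library sum to 1000000. Each log2 ratio below is that of MR to M after adding 1 to each TPM, and each plain ratio is that of the TPM values. The read pairs behind each gene were estimated from its FPKM, and the 95% counting intervals made from them by the Wilson method cover counting error only, not the difference between cultures. Psmb11, which encodes the thymus-specific β5 subunit, had no locus in either library. Psme2b, a copy of the activator gene Psme2 with which it shares 68.7% of its words (runs of 50 bases in its exons), lay inside loci given to the gene 9930111J21Rik1 and got no value. Psmc3ip is named as a partner of Psmc3 but encodes a meiotic recombination factor, so that it was kept among the 43 genes but outside the groups described by role.

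The genes the comparison turns on lie at a few positions of the GRCm38 build. Psmb8 (chr17:34197721-34201454, plus strand) and Psmb9 (chr17:34181987-34187764, minus strand) lie in the MHC on both sides of Tap1, which encodes a peptide transporter subunit, and Tap2 begins 2072 bases beyond Psmb8. Tap1 ends 495 bases before Psmb8, and its 5′ end overlaps Psmb9 by 212 bases on the opposite strand. Psmb10 (chr8:105935735-105938444, minus strand) is outside the MHC. The constitutive genes are on separate chromosomes, with Psmb5 at chr14:54614119-54618022 (minus strand), Psmb6 at chr11:70525367-70527858 (plus strand) and Psmb7 at chr2:38588036-38644087 (minus strand). Psmb5 is the neighbour of Psmb11, with 3410 bases between them, and Psme1 (chr14:55578123-55581529, plus strand) is 5911 bases from Psme2.

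Start regions are shown for Psmb5, higher in MR, and Psmb6, lower in MR, because both hold the same short motif. The sequences are from RefSeq (GRCm38.p6), are read 5′ to 3′ on the strand of the gene, and end at the base before the RefSeq start. Capitals mark a match to the antioxidant response element TGACNNNGC, the motif bound by the factors encoded by Nfe2l1 and Nfe2l2. In vM21, 27 bases of the Psmb5 stretch are exonic and 0 of the Psmb6 stretch are. Relative to the RefSeq start, the assembled loci of Psmb6 began at -45 in M and -23 in MR. The Psmb6 match, which begins at -9, thus lies within the assembled loci of both libraries. The Psmb5 match begins at -47, and the loci of Psmb5 began after it, at -22 in both libraries.
Psmb5, chr14:54617996-54618245, minus strand: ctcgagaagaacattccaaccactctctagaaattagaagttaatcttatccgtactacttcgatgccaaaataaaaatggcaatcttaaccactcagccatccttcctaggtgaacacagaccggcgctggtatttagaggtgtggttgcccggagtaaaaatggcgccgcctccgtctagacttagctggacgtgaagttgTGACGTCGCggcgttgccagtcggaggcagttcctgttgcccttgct
Psmb6, chr11:70525107-70525356, plus strand: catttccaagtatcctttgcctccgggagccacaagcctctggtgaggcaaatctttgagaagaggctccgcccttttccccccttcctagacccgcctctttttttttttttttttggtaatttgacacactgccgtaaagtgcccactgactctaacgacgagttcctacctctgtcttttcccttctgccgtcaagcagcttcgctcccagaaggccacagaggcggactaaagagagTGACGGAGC
Shorter stretches are shown for Psmb8, with the gamma-activated sequence TTCNNNGAA in capitals, and for Psme1, with the core of the interferon-stimulated response element (GAAA, any 2 bases and GAAA again) read on the reverse strand. Both motifs are known from interferon-induced genes. The Psmb8 match lies 97 bases before the RefSeq start, within an exon of vM21, and the assembled loci of Psmb8 began 160 bases past that start in M and 155 in MR. The Psme1 match lies 9 bases after the RefSeq start.
Psmb8, chr17:34198088-34198116, plus strand: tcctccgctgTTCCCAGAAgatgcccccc
Psme1, chr14:55578493-55578522, plus strand: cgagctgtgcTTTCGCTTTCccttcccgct

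Windows of 250 bases before to 50 after the RefSeq start were given for 38 of the 45 genes and were searched on both strands for 4 motifs. The antioxidant response element was found in 6 of the 38 windows (15.8%), those of Psmb5, Psmb6, Psmc6, Psmd9, Psmd12 and Psme4, and in 12.4% of all 32851 windows. The interferon-stimulated response element core was found for Psmb3, Psmd4, Psmd9 and Psme1 (10.5% of the windows, against 3.44% of all). The gamma-activated sequence was found for Psmb8 and Psmd2 (5.26%, against 8.30% of all), and the NF-κB motif (GGG, any 2 bases, TTTCC) in 0 of the 38 windows and 1.63% of all. Of the genes with the antioxidant response element, Psmb5 (log2 ratio 0.54), Psmd12 (0.54), Psmc6 (0.29), Psme4 (0.24) and Psmd9 (0.20) had higher values in MR and Psmb6 (-0.67) a lower one. The counting intervals of Psme4 and Psmd9 include 1. Of all genes tested, 40.5% had a lower value in MR. The genes with the interferon-stimulated response element core were at 0.29 (Psmb3), 0.20 (Psmd9), -0.02 (Psmd4) and -0.72 (Psme1). Those with the gamma-activated sequence were at -0.42 (Psmb8) and 0.23 (Psmd2). The assembled loci of Psmb10 began 268 and 287 bases past the RefSeq start, so that its window lay upstream of the first bases with reads.

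Few proteasome genes were past a log2 ratio of 1 in either direction, and the genes of the immunoproteasome, none of them past it, had lower TPM in MR, with Psmb9 level between the libraries when coverage was used instead. Other members had log2 ratios as low as theirs (-0.42 to -0.75), among them Psmb6 (-0.67), Psmd8 (-0.56) and Psmc1 (-0.51). The log2 ratio was above 1 or below -1 for 2 of the 43 genes (4.65%), against 34.5% of the 13449 genes tested, which had their own locus and reached 1 TPM in M or MR. Of all genes tested, 21.3% lay above 1 and 13.2% below -1. Among genes that reached 10 TPM these shares were 29.7% in all, 18.4% above 1 and 11.3% below -1, and the same 2 proteasome genes were past the threshold. These were Psmd10, higher in MR, and Psmc3ip, lower in MR. The median log2 ratio of the 43 genes was 0.06, with quartiles at -0.31 and 0.36, and that of all genes tested was 0.21, with quartiles at -0.42 and 0.84. Of the 43 genes 41.9% had a lower value in MR, against 40.5% of all genes tested. Summed over the 43 genes, the level was 8488 TPM in M against 7741 in MR (ratio 0.912). The counting interval of the ratio lay above 1 for 17 genes and below 1 for 13, and it included 1 for the other 13. Median-of-ratios scaling lowered TPM ratios of MR to M by 0.18 on the log2 scale, and the shift of the log2 ratio was smaller for Psma8 (0.96 to 0.81) and Psmc3ip (-2.52 to -2.67), where the added 1 weighs more. It took the median of the 43 genes to -0.12 and changed the sign of 6 of them, Psma5, Psma7, Psmc2, Psmc4, Psmd13 and Psmd14.

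**Figure D1:**
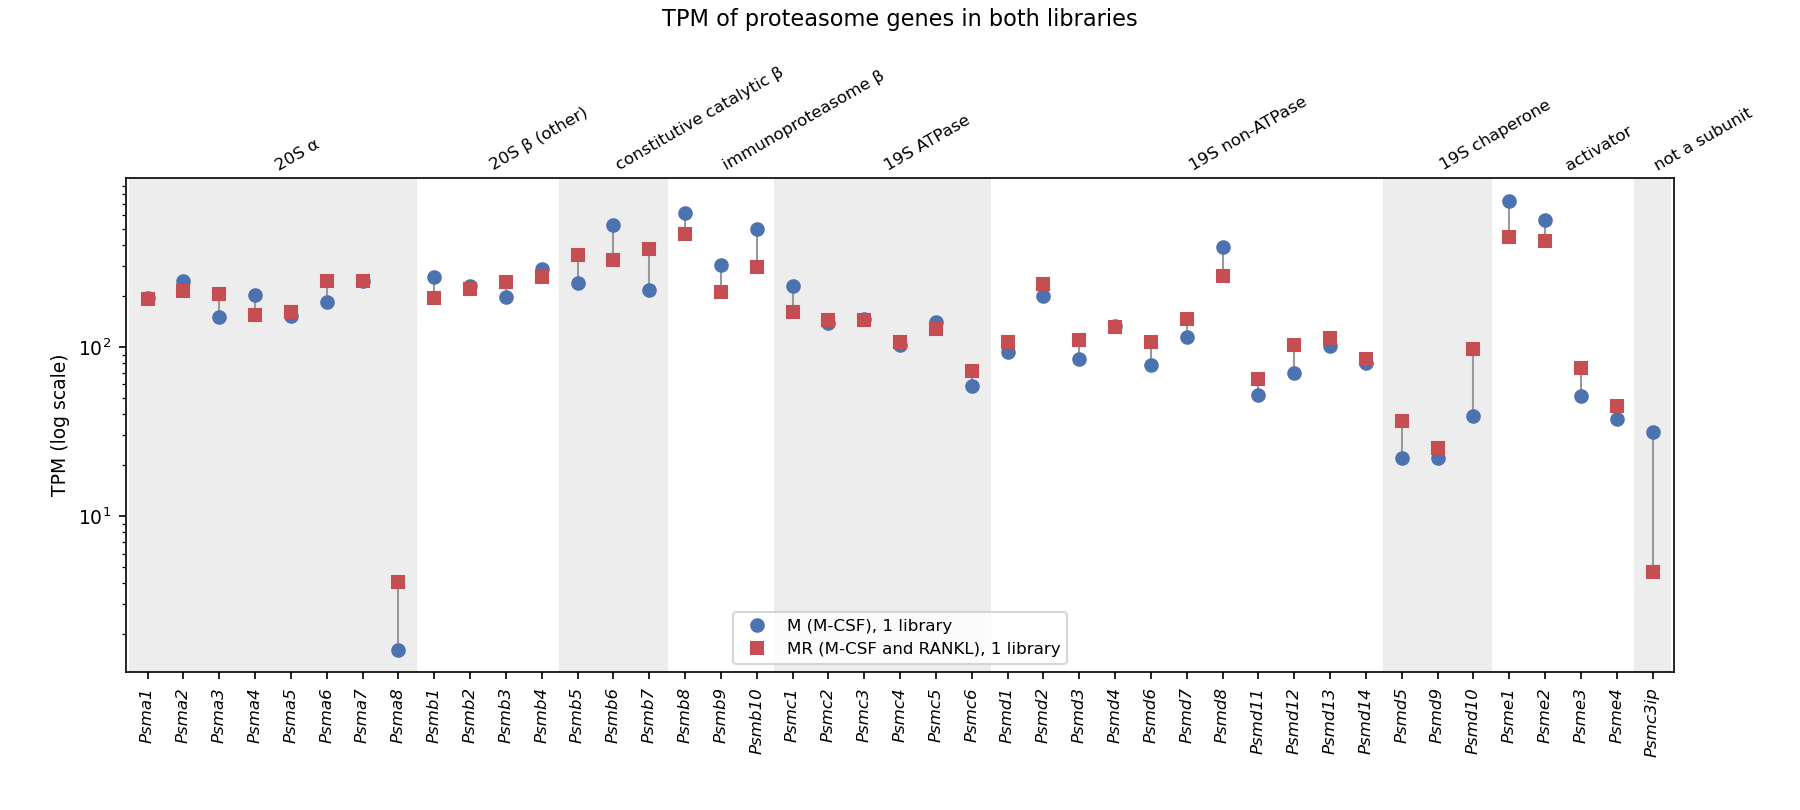
TPM of the 43 proteasome genes with a value (log scale) in M (circles) and MR (squares), 1 library each, grouped by role, with a line joining the values of a gene. Most circles and squares of a gene lie close to each other, and Psma8 lies far below at 1.61 and 4.07. The circle lies above the square for 18 of the 43 genes. Among these are Psmb8, Psmb9, Psmb10, Psme1 and Psme2, and also Psmb6, Psmd8 and Psmc1.

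**Figure D2:**
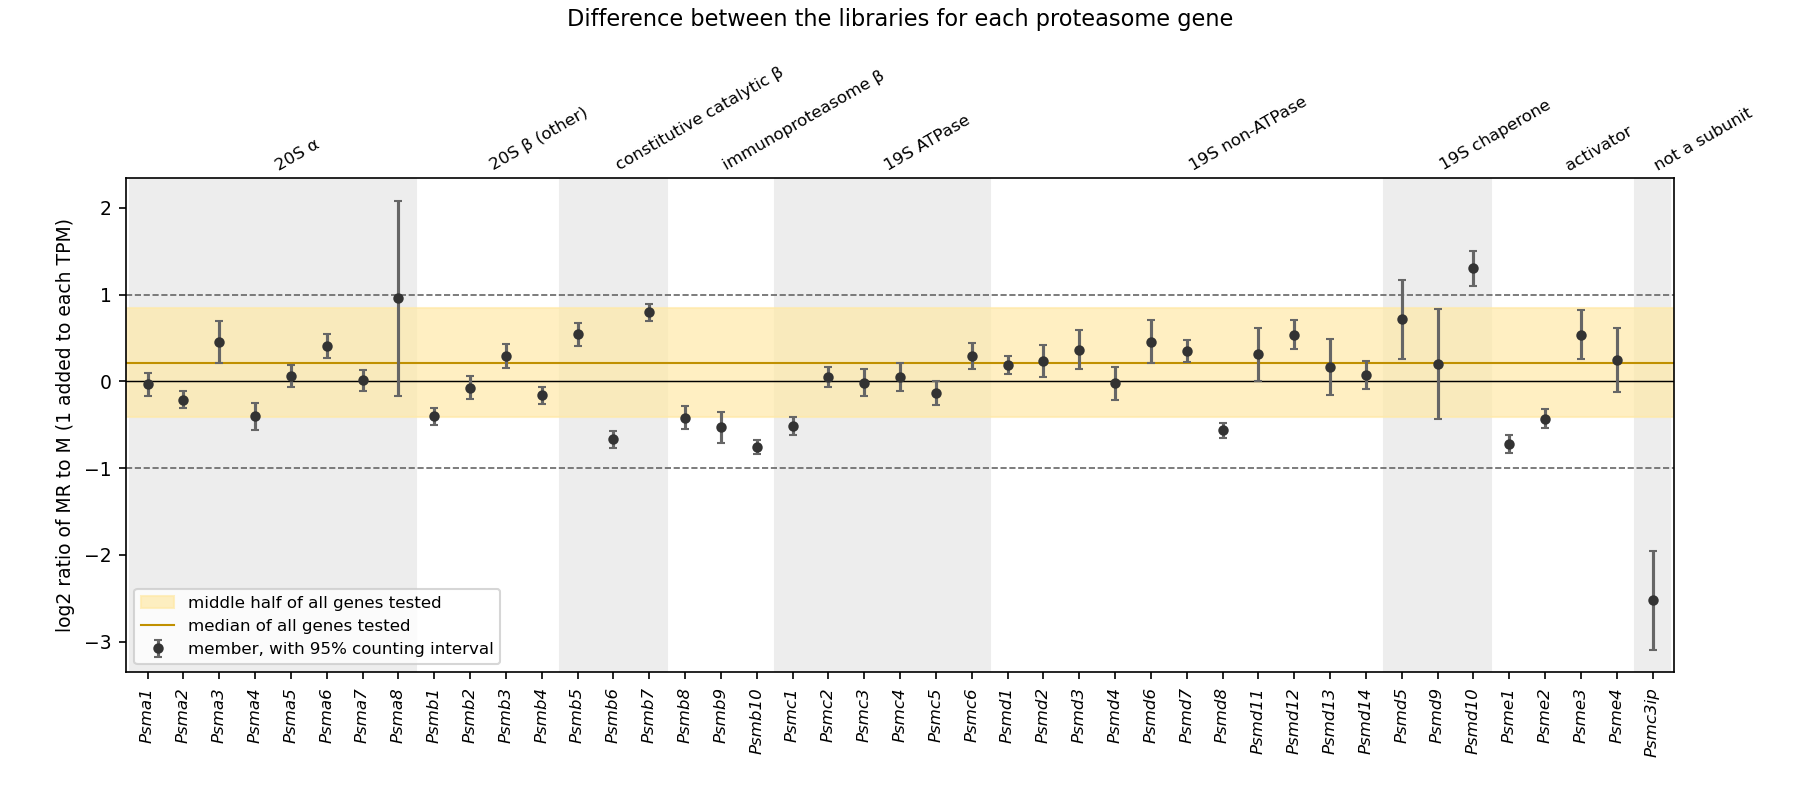
Log2 ratio of MR to M for each proteasome gene (points) with its 95% counting interval (bars), over the quartile range of all genes tested (yellow band, -0.42 to 0.84) and their median (yellow line, 0.21). The bars have the lengths of the interval of the plain ratio, placed on the log2 ratio made with 1 added. For Psma8 the bar is therefore shifted down from the interval itself, which is 0.21 to 2.46 on the log2 scale. Dashed lines mark the threshold of 1 and -1, and only Psmd10 at 1.30 and Psmc3ip at -2.52 lie beyond them.

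Among the catalytic subunits, all immunoproteasome genes had lower TPM in MR than in M, a direction that by coverage did not hold for Psmb9 (log2 ratio 0.00), whereas the constitutive genes were divided, with Psmb5 and Psmb7 higher and Psmb6 lower. Psmb8, for the inducible β5 subunit, stood at 620.4 TPM in M against 464 in MR (ratio 0.747, counting interval 0.682 to 0.819). Psmb9, for the inducible β1 subunit, stood at 305 TPM in M against 211 in MR (ratio 0.691, interval 0.612 to 0.780). Psmb10, for the inducible β2 subunit, stood at 501 TPM in M against 297 in MR (ratio 0.592, interval 0.559 to 0.627). M was thus the higher library for each of them, and the order of the levels, Psmb8 over Psmb10 over Psmb9, held in both. Psmb5, for the constitutive β5 subunit, stood at 239 TPM in M against 349 in MR (ratio 1.46, interval 1.33 to 1.60). Psmb7, for the constitutive β2 subunit, stood at 218 TPM in M against 379.6 in MR (ratio 1.74, interval 1.62 to 1.86). Psmb6, for the constitutive β1 subunit, stood at 524 TPM in M against 329 in MR (ratio 0.629, interval 0.586 to 0.674). The highest and lowest of the constitutive levels differed by 2.40 times in M and by 1.15 times in MR. The median log2 ratio was -0.53 for the immunoproteasome genes and 0.54 for the constitutive ones, and the summed TPM went from 1426 to 971 and from 981 to 1057, respectively. These values rest on 403 to 3674 estimated read pairs per gene and library.

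The balance at each catalytic site can be read within a library, where the scaling between libraries has no part. At the β5 site, Psmb8 made up 72.2% (counting interval 70.4 to 73.9) of the TPM of Psmb8 and Psmb5 in M and 57.1% (54.7 to 59.4) in MR. At the β2 site, Psmb10 made up 69.6% (68.3 to 70.9) in M and 43.9% (42.3 to 45.5) in MR, so that the constitutive gene was the higher one in MR. At the β1 site, Psmb9 made up 36.8% (34.9 to 38.7) in M and 39.0% (36.4 to 41.8) in MR, and these intervals overlap. The ratio of the inducible to the constitutive gene thus differed between MR and M by -0.97 at β5, by -1.55 at β2 and by 0.14 at β1 on the log2 scale. The lower TPM of Psmb9 in MR went with a lower Psmb6, and the sum of this pair was 0.652 times that in M, whereas the sums at β5 and β2 were 0.945 and 0.941 times those in M. Over all 3 sites the inducible share was 59.2% (58.3 to 60.2) in M and 47.9% (46.7 to 49.1) in MR.

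**Figure D3:**
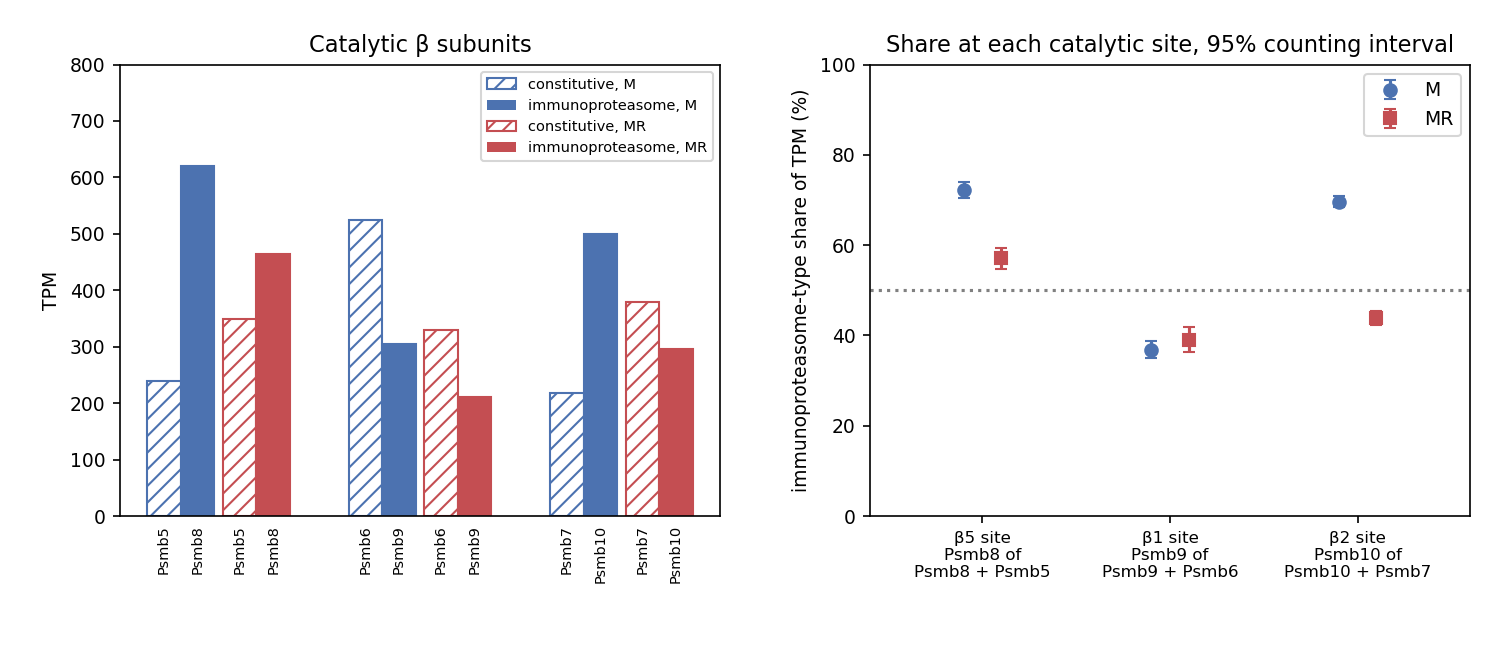
Left, TPM (linear axis from 0) of the constitutive (hatched) and inducible (filled) gene at each catalytic site in M (blue) and MR (red). Right, share of the inducible gene in the TPM of its pair (percent) with its 95% counting interval, which is lower in MR at β5 (72.2% to 57.1%) and β2 (69.6% to 43.9%) and overlaps at β1 (36.8% and 39.0%).

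The way reads were given to transcripts bears on some of these values. The deposited coverage, a read depth per base, was 0.56 times the depth its FPKM corresponds to for Psmb9 in M and 0.85 times in MR, and the Psmb9 loci of the 2 libraries began 304 bases apart, next to the overlap with Tap1. With coverage in place of TPM the log2 ratio of Psmb9 was 0.00 and the change of the Psmb9 to Psmb6 ratio was 0.46, while the values for Psmb8 to Psmb5 and Psmb10 to Psmb7 were -0.97 and -1.43. Of the words of 50 bases in the Psmb5 exons, 54.1% occur elsewhere among annotated transcripts, mainly in the processed pseudogene Gm3375, which stood at 8.10 TPM in M against 22.6 in MR. Psmb7 shares 28.1% of its words with Nek6, which overlaps it on the opposite strand and stood at 12.7 TPM in M against 5.07 in MR. Reads that lie wholly in a shared run cannot be told apart between copies, and the same holds for overlapping genes on opposite strands if the library did not mark strand, which is not given in the sources used here. The shared part was 5.51% for Psmb8, 9.71% for Psmb9, 2.67% for Psmb6 and 0% for Psmb10.

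The activators of the 20S core also divided. Psme1 and Psme2 encode the subunits of PA28αβ, an interferon-inducible ring that opens the core and is linked to antigen processing. Psme1 had the highest level of all members in M, at 734 TPM in M against 446 in MR (ratio 0.608, interval 0.565 to 0.653). Psme2 stood at 568 TPM in M against 422 in MR (ratio 0.743, interval 0.688 to 0.801), with 54.9% of its words shared with Psme2b. Together they summed to 1302 in M and 868 in MR. Psme3, for the nuclear activator PA28γ, stood at 51.5 TPM in M against 75.2 in MR (ratio 1.46, interval 1.20 to 1.77). Psme4, for the nuclear activator PA200, stood at 37.6 TPM in M against 44.7 in MR, and its counting interval of 0.921 to 1.53 includes 1. The PA28αβ genes were thus lower in MR, and the genes of the nuclear activators had values above those in M at far lower levels.

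The remaining core genes showed no common direction. The α subunits other than Psma8 lay between 150.4 and 247 TPM in M and between 154 and 247 in MR, and their sum was 1381 in M and 1418 in MR. Their median log2 ratio was 0.01, and with Psma8 it was 0.04. Psma3 was the highest of them by log2 ratio, at 150.4 TPM in M against 207 in MR (0.46), and Psma4 was the lowest, at 204 TPM in M against 154 in MR (-0.40). By coverage Psma4 was at -1.33, with a coverage in MR of 0.54 times the depth its FPKM corresponds to. Psma3 shares 22.0% of its words with the pseudogene Gm13835, whose own TPM was 99.1 in M and 126 in MR. Psma4 shares 23.7% of its words, mainly with the pseudogene Gm6542, whose own TPM was 36.4 in M and 50.1 in MR. Psma6 had a log2 ratio of 0.41 and Psma2 of -0.21, and Psma1, Psma5 and Psma7 lay between -0.03 and 0.06. Psma8, the testis-type relative of Psma7, was near the floor of detection, at 1.61 TPM in M against 4.07 in MR (log2 ratio 0.96), values that rest on 9 and 18 estimated read pairs. Among the β subunits without a catalytic site, Psmb3 had the highest log2 ratio (0.29, at 198 TPM in M against 243 in MR) and Psmb1 the lowest (-0.40, at 258 TPM in M against 195 in MR). Psmb3 shares 55.8% of its words, mainly with the pseudogene AC114990.1, which stood at 3.74 TPM in M against 12.5 in MR. Psmb2 and Psmb4 had log2 ratios of -0.07 and -0.16, and the median of these 4 genes was -0.12.

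The 17 Psmc and Psmd genes for subunits of the 19S particle had nearly the same total in both libraries, 2217 TPM in M and 2223 in MR. Subunits with other symbols, such as Sem1, are not in these sums. The 6 ATPases, which form the ring that unfolds substrates, had a median log2 ratio of 0.02. Psmc1 was the lowest of them, at 230.2 TPM in M against 161 in MR (-0.51), and Psmc6 the highest, at 58.5 TPM in M against 71.8 in MR (0.29). Psmc1 shares 17.6% of its words, mainly with the pseudogene Gm9575, which stood at 6.68 TPM in M against 0 in MR. Psmc2, Psmc3, Psmc4 and Psmc5 lay between -0.13 and 0.05, and the counting interval of each includes 1. The medians of the α subunits and of the ATPases were near 0 and changed sign to -0.15 and -0.16 under median-of-ratios scaling.

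Of the 11 non-ATPases, 9 had a higher value in MR and 2 a lower one, with a median log2 ratio of 0.23, near the 0.21 of all genes tested. Psmd12, a scaffold subunit of the lid, was the highest, at 70.2 TPM in M against 102 in MR (0.54). Psmd8, also of the lid, was the lowest, at 389.5 TPM in M against 263 in MR (-0.56), and it had the highest of the non-ATPase levels in both libraries. The genes of the deubiquitinase pair were nearly level for Psmd14, at 80.5 TPM in M against 84.8 in MR, and had a log2 ratio of 0.35 for its partner Psmd7. The scaffold genes Psmd1 and Psmd2, which bind ubiquitin-like carriers, had log2 ratios of 0.19 and 0.23. Psmd4, for a ubiquitin receptor, was at -0.02. The lid genes Psmd3, Psmd6, Psmd11 and Psmd13 lay between 0.16 and 0.46. With coverage in place of TPM, Psmd1 and Psmd7 were past the threshold, at log2 ratios of 1.73 and 1.07. The coverage of Psmd1 in M was 0.32 times the depth its FPKM corresponds to, and that of Psmd7 in M was 0.57 times. The Psmd7 locus in M ran 4092 bases past the 3′ end of the gene, and the Psmd7 loci of the 2 libraries overlapped by 65.7%.

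The assembly chaperones of the 19S base had the highest median of all roles, 0.71. Psmd10 encodes gankyrin, which holds the ATPase of Psmc4 during assembly and is also known to bind Cdk4 and Mdm2. It stood at 39.2 TPM in M against 97.9 in MR (ratio 2.50, interval 2.18 to 2.87), and it was the only subunit or chaperone gene past the threshold in TPM. None of its words of 50 bases occurs in another gene, and its log2 ratio of 1.30 was 1.12 under median-of-ratios scaling. Psmd5 stood at 22.0 TPM in M against 36.7 in MR (ratio 1.67, interval 1.22 to 2.29). Psmd9 stood at 21.9 TPM in M against 25.4 in MR, with a counting interval of 0.745 to 1.80. With coverage in place of TPM the log2 ratio of Psmd9 was -0.17. Its coverage was 0.64 times the depth its FPKM corresponds to in M and 0.51 times in MR. By TPM the chaperone genes were therefore higher in MR in 3 of 3, where 40.5% of all genes tested had a lower value in MR. In MR the level of Psmd10 was close to the 107 TPM of Psmc4.

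Psmc3ip stood at 31.4 TPM in M against 4.65 in MR (log2 ratio -2.52). Of the value in M, 24.7 TPM came from a locus on the minus strand (chr11:101091090-101092147) that runs past the 3′ end of the gene and lies across the 3′ part of Mlx, which is annotated on the plus strand. In M the Mlx locus stopped at base 101091621, with a TPM of 32.0, and in MR it ran on to base 101092185, with a TPM of 57.2. Without the overlapping locus, Psmc3ip stood at 6.71 TPM in M against 4.65 in MR (log2 ratio -0.45). The value past the threshold thus rests on this locus.

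Genes that work with the proteasome were counted in lists chosen with earlier results of these data known. Of 5 assembly chaperones of the 20S core, 0 were past a log2 ratio of 1 in either direction, against 34.5% of all genes tested. Psmg4 was the lowest, at 71.3 TPM in M against 37.8 in MR, and Psmg1 the highest, at 14.8 TPM in M against 25.4 in MR. Pomp, which matures new cores and favours the inducible ones, stood at 388 TPM in M against 324 in MR. Paaf1 was not analysed here. Of 8 partners of the 19S particle, 0 were past the threshold, against the same 34.5%. Their log2 ratios ran from -0.60 for Sem1, a small lid subunit, to 0.89 for Rad23b, a shuttle that brings ubiquitinated proteins. Uchl5 lay inside a locus given to Gm29170 and got no value.

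Of 4 genes for ubiquitin and its use, 1 was above the threshold and 0 below it, against 21.3% and 13.2% of all genes tested. This was Rps27a, which encodes ubiquitin fused to a ribosomal protein, at 322 TPM in M against 780.2 in MR (1.28). Ubb, a polyubiquitin gene known to respond to stress, was the lowest of the list, at 2408 TPM in M against 1453 in MR (-0.73). These genes for ubiquitin itself thus differed in direction.

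Of 6 regulators of proteasome genes, 2 were below the threshold and 0 above it, against 13.2% and 21.3% of all genes tested. In either direction, the share past the threshold was near the 34.5% of all genes tested. Irf8, an interferon regulatory factor of the myeloid lineage, stood at 155 TPM in M against 25.2 in MR (-2.57). Nfe2l2, for Nrf2, stood at 170.2 TPM in M against 71.6 in MR (-1.24). Nfe2l1, for the factor that restores proteasome genes when the protease is inhibited, stood at 73.2 TPM in M against 73.3 in MR. Irf1 and Nlrc5, which act on immunoproteasome or MHC class I genes, had lower values in MR, at log2 ratios of -0.39 and -0.73. Among 11 genes of MHC class I peptide loading, 0 were past the threshold, 8 had a lower value in MR, against 40.5% of all genes tested, and the median was -0.52, against 0.21 over all genes tested. Tapbp, among these 8, was counted from a locus shared with another coding gene, and such genes are not among all genes tested. Tap1, which lies between Psmb9 and Psmb8, stood at 322 TPM in M against 225 in MR (-0.52). Tap2, beyond Psmb8 in the same cluster, was the highest of the list, at 127 TPM in M against 235 in MR (0.89), and H2-D1, for a class I heavy chain, was the lowest, at 5397 TPM in M against 2927 in MR (-0.88). The neighbours in the MHC therefore did not share 1 direction.

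**Figure D4:**
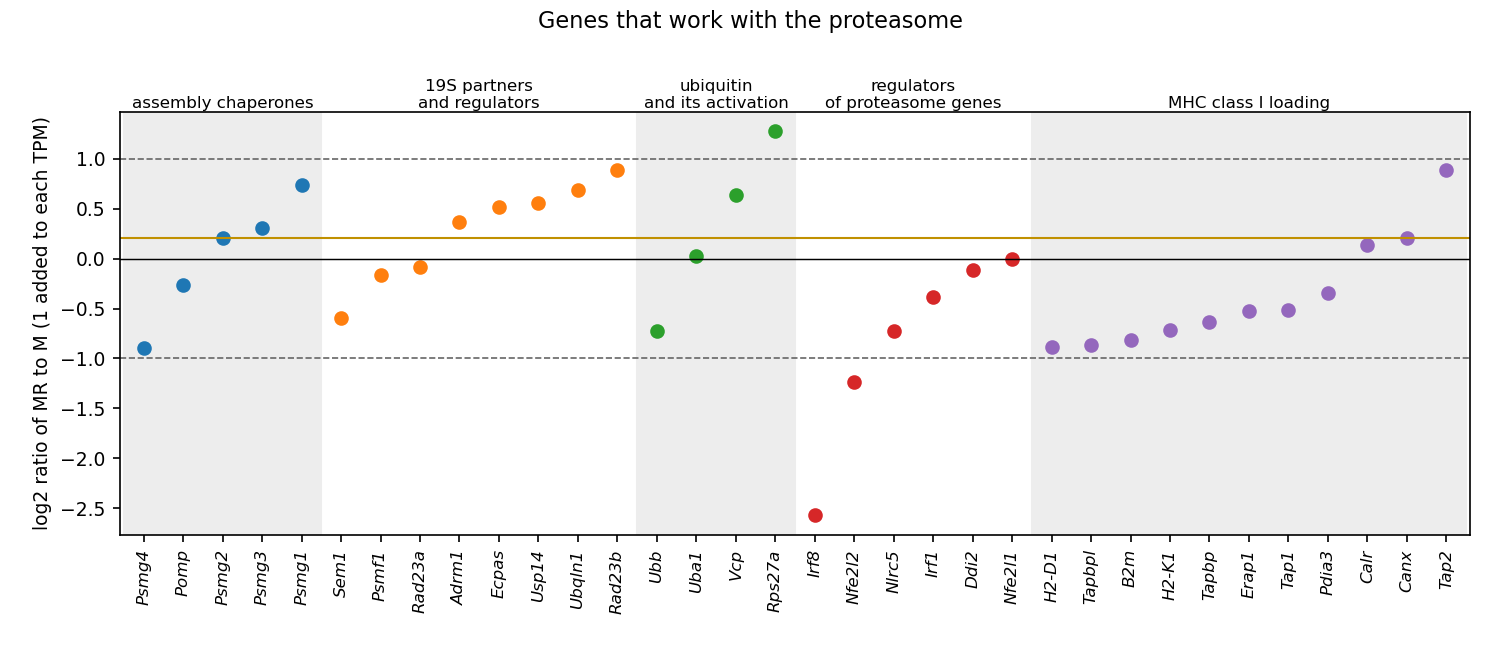
Log2 ratio of MR to M (1 added to each TPM) for the genes of 5 lists that work with the proteasome, ordered within each list, with the median of all genes tested (yellow line) and the threshold of 1 and -1 (dashed). Rps27a lies above 1, Irf8 and Nfe2l2 lie below -1, and 8 of the 11 MHC class I loading genes lie below 0.

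Markers of osteoclasts and of other cell types also differed between the libraries. All 8 osteoclast markers were above the threshold, against 21.3% of all genes tested. Their sum was 121 TPM in M against 24835 in MR. Of these, Mmp9 went from 11.4 to 5159, and Dcstamp, Ocstamp, Calcr and Oscar were at 0 in M. Of 6 macrophage markers, 5 were lower in MR, against 40.5% of all genes tested. They had a sum of 4320 TPM in M against 3372 in MR, and the 6 ran from Mertk at -2.70 to Csf1r at 0.32. Of 8 neutrophil markers, 7 were lower, against the same 40.5%. The 8 had a sum of 952 TPM in M against 608 in MR. Single genes ran from 3.07 to 495 TPM in M and from 2.59 to 278 in MR. The summed TPM of dendritic cell markers, whose cells are rich in immunoproteasomes, was 20.4 in M and 22.3 in MR. B cell markers summed to 19.6 and 9.81, stromal markers to 20.2 and 36.4, erythroid markers to 3.35 and 2.11, and mast cell and basophil markers to 3.85 and 0. T and NK cell markers summed to 1.77 in M and 2.88 in MR, and 4 of their 6 genes were at 0 in both libraries. In such bulk RNA, fewer cells of a type and less RNA per cell cannot be told apart, and the part of these cells in the immunoproteasome values was not tested.

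As to depth, the ratio of coverage to FPKM gave 3.63 Gb of aligned bases in M and 2.98 Gb in MR. Of the assembled loci, 19422 in M and 19922 in MR, those given to genes held 95.4% and 96.9% of the TPM. The loci of a proteasome gene began within 50 bases of each other in the 2 libraries for 39 of 43 genes, and the exceptions were Psmb9, Psma6, Psma8 and Psmc3ip. Of the 45 genes, 14 share over 10% of their words of 50 bases with another gene, and 19 share none.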

How the data were processed

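Total RNA from 1 M and 1 MR culture was made into libraries with the NEB Next Ultra RNA kit and sequenced in pairs of 150 bases. The authors removed adaptors with Trim Galore, mapped the reads to UCSC mm10 with HISAT2 and ran StringTie with GENCODE vM27. The submitters' processing notes also name FastQC and SAMtools, with no versions. The deposited tables list coverage (read depth per base, not normalized for library size), FPKM and TPM. The deposited TPM of the assembled loci alone sum to 1000000, and entries with gene names, which hold GRCm39 positions, are listed in addition and were not used.

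Loci were assigned to genes of vM21 (GRCm38) by the largest number of covered exon bases (minimum 50) on the strand of the gene, and loci without a strand were allowed. TPM was summed per gene. Genes tested had their own locus and reached 1 TPM in M or MR, and their log2 ratios (pseudocount of 1) were set against a threshold of 1. List and marker genes with a locus shared with another coding gene, such as Tapbp, were counted in their lists though not among the genes tested. No p-value was computed. Aligned bases were taken as the modal coverage to FPKM ratio above an FPKM of 5, held by 33.6% of such loci in M and 36.3% in MR. Read pairs were FPKM times aligned bases times the length of the shortest coding transcript, divided by 300 bases. Reads without molecular identifiers are not independent molecules. Shared words are runs of 50 bases found in exons of another gene.

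The members, lists and rules were chosen with earlier results of these data known. Named genes are the catalytic subunits, the highest and lowest of each role and of each list of partner genes, and any member past the threshold or without a value. Marker lists are given by their counts and sums, with few genes named. Others were named after their values were seen, and 3 genes of the lists are not reported here. The settings varied were the pseudocount (0.1), the filter (none, or 10 TPM), the unit (FPKM, or coverage per aligned Gb), the scaling (median of ratios over 11265 genes, or leaving out mitochondrial and the 20 most abundant genes), the loci used (stranded ones, 1 exon base, own in both libraries) and the threshold (2). Leaving out Psmc3ip or its overlapping locus was chosen after seeing the data. The assignment was tested on simulated data with 1 locus per gene, on the strand of the gene and ending near its ends. Such data cannot test loci that are split, run past a gene or lie on the wrong strand. Scripts ran in Python (3.11.15), with scipy (1.17.1) for intervals, pandas (2.3.3) and numpy (2.4.6) for tables and matplotlib (3.10.9) for plots.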

Additional observations from a re-analysis of the deposited data

How the results depend on the processing

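No paired analysis was possible because there was 1 library per condition, and for the same reason no replicate could be left out. The number of proteasome genes past the threshold was 2 in the values reported, 5 with coverage per aligned Gb (Psma4, Psmc3ip, Psmd1, Psmd7 and Psmd10), 1 with a log2 threshold of 2, 1 without the Psmc3ip locus that overlaps Mlx and 1 without Psmc3ip. With a threshold of 2, 11.0% of all genes tested were past it. The median log2 ratio of the 43 genes was -0.12 under median-of-ratios scaling. Of 115 values of the main results over all settings, 109 stayed within their spread or counting interval (a count, within 1.5 times) and 6 moved, and of 301 values of single genes 46 moved. For most roles the spread of a median ran from its lowest to its highest member (α subunits -0.40 to 0.96), which small shifts can hardly leave. The shares use no pseudocount, and scaling cancels in them. Many values that stayed were thus fixed in advance, and their count says little about how firm the results are. The lower values of Psmb8 and Psmb10 held under each alternative run, and that of Psmb9 was 0.00 with coverage, where the cause was not tested. With coverage the change of the ratio at β2 was -1.43 instead of -1.55 and that at β1 0.46 instead of 0.14, while that at β5 stayed at -0.97. The other settings could not test these ratios. The pseudocount does not enter them, scaling and FPKM in place of TPM cancel in them, and the filters and locus rules left these genes as they were. With a pseudocount of 0.1, Psma8 was also past the threshold, on 9 and 18 read pairs. Depth limits genes with few read pairs such as Psma8, and the single libraries limit every comparison.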
